A study of Rattus norvegicus with 20 samples.

Results

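Enzyme genes of xenobiotic metabolism and oxidative stress, namely Cyp1a1, Cyp1b1, Hmox1, Nqo1, Gclm, Gclc, Txnrd1, Xdh and Cat, were described across all groups of an array study of rat pancreatic islets. The list of 9, out of 14218 genes measured, was chosen by the measured fall of Cyp1a1 and Hmox1 in islets given Nr4a3 virus against islets given GFP virus, and the other 7 genes were added for what their products do. The question was whether genes of the same pathways moved with Cyp1a1 and Hmox1. The differences of Cyp1a1 and Hmox1 are therefore descriptions and carry no test, except in the comparison of Nr4a1 islets with untreated islets. The means compared there use none of the arrays that chose Cyp1a1 and Hmox1. The spread behind that test was estimated from all 20 arrays, those that chose them included. Earlier results of these data were known when the genes and tests were chosen, so its p-values are not those of a fresh test.

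Islets came from male Wistar rats aged 8 weeks. The 4 groups, each with 5 arrays, were islets given an adenovirus for the orphan nuclear receptor Nr4a1, an adenovirus for its relative Nr4a3, an adenovirus for green fluorescent protein (GFP), or no virus (untreated). All islets were cultured with 10% serum and 8 mM glucose, virus was left on for 18 h where it was used, and islets were collected at 48 h. One protocol field of the labels instead speaks of β-galactosidase and Nkx6.1 viruses, and the groups here follow the titles and characteristics. The Nr4a1 probe set differed by -0.07 ± 0.09 (log2, SE) between Nr4a1 and GFP islets and the Nr4a3 probe set by 0.19 ± 0.10 between Nr4a3 and GFP islets, with adjusted p of 0.775 and 0.421 in limma. The Nr4a3 probe set was instead higher in the Nr4a1 islets, by 0.44 ± 0.10 against GFP islets (adjusted p = 0.0056), with no overlap of the ranges. These probe sets thus do not bear out the labels. Where they lie relative to the delivered sequences is not known, so they cannot decide whether the labels hold. Every group name below is the name on the label. The titles call the arrays of a group biological replicates, but which animals or islet pools each array stands for was not given. The p-values thus measure the spread between these samples, and how much of it lies between animals is not known.

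Values are log2 of the deposited robust multi-array average (RMA) intensities, for the brightest probe set of each gene, and levels of different genes are not compared. On the linear scale the array medians were 98.9 to 103, and the number of arrays limits the precision. Nr4a3 replicate 2 stood apart, with a mean correlation with the other arrays of 0.941 across genes, against 0.982 to 0.989 for the others, and a difference between the 3′ and 5′ actin control probe sets of 4.62 log2 units, against at most 2.21 in the others. Islets hold several cell types, and in such bulk RNA fewer cells of a type and less RNA per cell cannot be told apart. The 9 measured beta cell markers, insulin genes among them, summed to between 72844 and 106097 on the linear scale on every array.

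Cyp1a1 and Cyp1b1 are cytochrome P450 enzymes that oxidise polycyclic aromatic compounds, and both are classical targets of the aryl hydrocarbon receptor (AhR), which binds DNA with its partner Arnt when a ligand enters the cell. Hmox1 breaks down heme. It is a target of Nrf2, the factor that Keap1 holds back until oxidants or electrophiles appear, as are the quinone reductase Nqo1, both subunits of the enzyme that starts glutathione synthesis, Gclc and Gclm, and the thioredoxin reductase Txnrd1. Xdh, xanthine dehydrogenase, makes uric acid in purine breakdown and can pass electrons to oxygen. Cat, catalase, splits hydrogen peroxide and is known to be scarce in beta cells of rodents.

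The bases upstream of 4 of the genes are shown. In the results below Xdh passed the test, Nqo1 only under some alternative runs, and Cyp1b1 and Gclm in no comparison. Windows of 250 bases before the RefSeq gene start (build GRCr8) were found for 7 of the 9 genes, not for Cyp1a1 or Hmox1. They were searched on both strands for the core bound by the AhR (GCGTG, the xenobiotic response element), the core bound by Nrf2 (TGACNNNGC, the antioxidant response element) and the element of the NR4A receptors (AAAGGTCA), and capitals mark matches. The AhR core occurred in 25.9% of 33469 such windows, the Nrf2 core in 10.1% and the NR4A element in 1.24%. The windows are chr6:21094315-21094564 on the + strand for Cyp1b1, chr19:52220268-52220517 on the - strand for Nqo1, chr2:213031885-213032134 on the + strand for Gclm and chr6:27282069-27282318 on the + strand for Xdh.
Cyp1b1: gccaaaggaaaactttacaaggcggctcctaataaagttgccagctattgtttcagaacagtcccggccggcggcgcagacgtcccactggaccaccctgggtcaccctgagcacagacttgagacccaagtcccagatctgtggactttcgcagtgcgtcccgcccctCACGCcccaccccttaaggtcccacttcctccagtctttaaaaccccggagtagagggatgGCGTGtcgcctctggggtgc
Nqo1: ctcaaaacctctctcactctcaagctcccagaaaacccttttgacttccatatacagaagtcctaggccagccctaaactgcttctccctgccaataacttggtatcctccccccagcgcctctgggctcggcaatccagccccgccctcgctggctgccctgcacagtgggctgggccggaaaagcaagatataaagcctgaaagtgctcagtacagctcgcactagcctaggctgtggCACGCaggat
Gclm: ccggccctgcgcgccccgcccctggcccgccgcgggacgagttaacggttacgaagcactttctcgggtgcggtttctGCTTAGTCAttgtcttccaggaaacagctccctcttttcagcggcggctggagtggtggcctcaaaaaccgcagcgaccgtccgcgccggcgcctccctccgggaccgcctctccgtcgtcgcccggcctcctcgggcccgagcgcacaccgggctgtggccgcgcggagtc
Xdh: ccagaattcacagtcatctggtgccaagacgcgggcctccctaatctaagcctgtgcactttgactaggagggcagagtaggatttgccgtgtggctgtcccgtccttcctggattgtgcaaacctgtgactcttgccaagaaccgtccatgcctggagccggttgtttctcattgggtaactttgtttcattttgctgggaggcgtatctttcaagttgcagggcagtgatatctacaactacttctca
The Cyp1b1 window holds 2 AhR cores, the nearer 20 to 16 bases before the start. The Nqo1 window holds 1 AhR core, 10 to 6 bases before the start, and the Gclm window 1 Nrf2 core, 172 to 164 bases before it. The Xdh window holds none of the 3 motifs, nor does that of Cat. Of the other windows not printed, that of Gclc holds 1 AhR core. The Txnrd1 window at chr7:22755905-22756154 holds 1 AhR core and 1 Nrf2 core, and the other Txnrd1 window holds none of the motifs. A match describes letters in a window and not a bound site.

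Cyp1a1, the P450 most used as a marker of AhR activity, was low in both receptor groups. It had log2 values of 6.48, 6.58, 7.46, 6.41 and 7.13 in Nr4a1 islets and 6.71, 6.34, 6.24, 6.98 and 6.45 in Nr4a3 islets. It had 7.58, 7.29, 7.04, 7.82 and 7.06 in GFP islets, and 8.07, 7.44, 7.81, 7.48 and 8.07 in untreated islets. All Nr4a3 arrays lay below all GFP arrays, the ranges of Nr4a1 and GFP islets overlapped through Nr4a1 replicates 3 and 5, and the GFP arrays overlapped the untreated ones. The differences were -0.81 ± 0.21 (SE) in Nr4a3 against GFP islets, which is the value that chose the gene, and -0.55 ± 0.21 in Nr4a1 against GFP islets. GFP islets were lower than untreated islets by a difference of -0.42 ± 0.21, so that the group means ran from Nr4a3 (6.54 ± 0.30 SD) through Nr4a1 (6.81 ± 0.46) and GFP (7.36 ± 0.34) to untreated (7.78 ± 0.30, n = 5 each). Each group overlapped its neighbour in that order.

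In Nr4a1 against untreated islets, where Cyp1a1 could be tested, it fell by 0.97 ± 0.21 on the log2 scale (95% interval -1.40 to -0.53, adjusted p = 0.0056, limma over 14218 genes). In that comparison 7.94% of all genes passed an adjusted p under 0.05, 2.6% lower and 5.35% higher, and it holds the effect of virus and of receptor together. Leaving out each array in turn gave differences between -1.13 and -0.87, all past the threshold.

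Cyp1b1, the other AhR-driven P450 of the set, did not pass the test in any comparison. Its means were 9.98 ± 0.26 in Nr4a1, 9.98 ± 0.27 in Nr4a3, 10.16 ± 0.36 in GFP and 10.26 ± 0.23 in untreated islets (SD, n = 5 each), and all 4 ranges overlapped. The difference was -0.18 ± 0.17 in Nr4a1 against GFP islets (95% interval -0.53 to 0.17, adjusted p = 0.652) and -0.18 ± 0.17 in Nr4a3 against GFP islets (-0.53 to 0.17, adjusted p = 0.667).

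Hmox1, the inducible heme oxygenase, had nearly the same level in both receptor groups. It had 11.74, 11.79, 12.15, 11.80 and 12.55 in Nr4a1 islets and 11.88, 11.99, 12.08, 12.37 and 11.70 in Nr4a3 islets. It had 12.89, 12.80, 12.53, 12.46 and 12.65 in GFP islets and 12.62, 12.49, 12.97, 12.59 and 12.45 in untreated islets. Every Nr4a3 array lay below every GFP array and every untreated array, and only Nr4a1 replicate 5 reached the GFP range. The differences against GFP islets were -0.66 ± 0.15 with Nr4a1 and -0.66 ± 0.15 with Nr4a3, a 1.58-fold lower level in each. GFP and untreated islets differed by 0.04 ± 0.15. In Nr4a1 against untreated islets Hmox1 fell by 0.62 ± 0.15 (95% interval -0.93 to -0.30, adjusted p = 0.0134, limma), and without Nr4a1 replicate 1 the difference was -0.55 with an adjusted p of 0.0503.

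**Figure D1:**
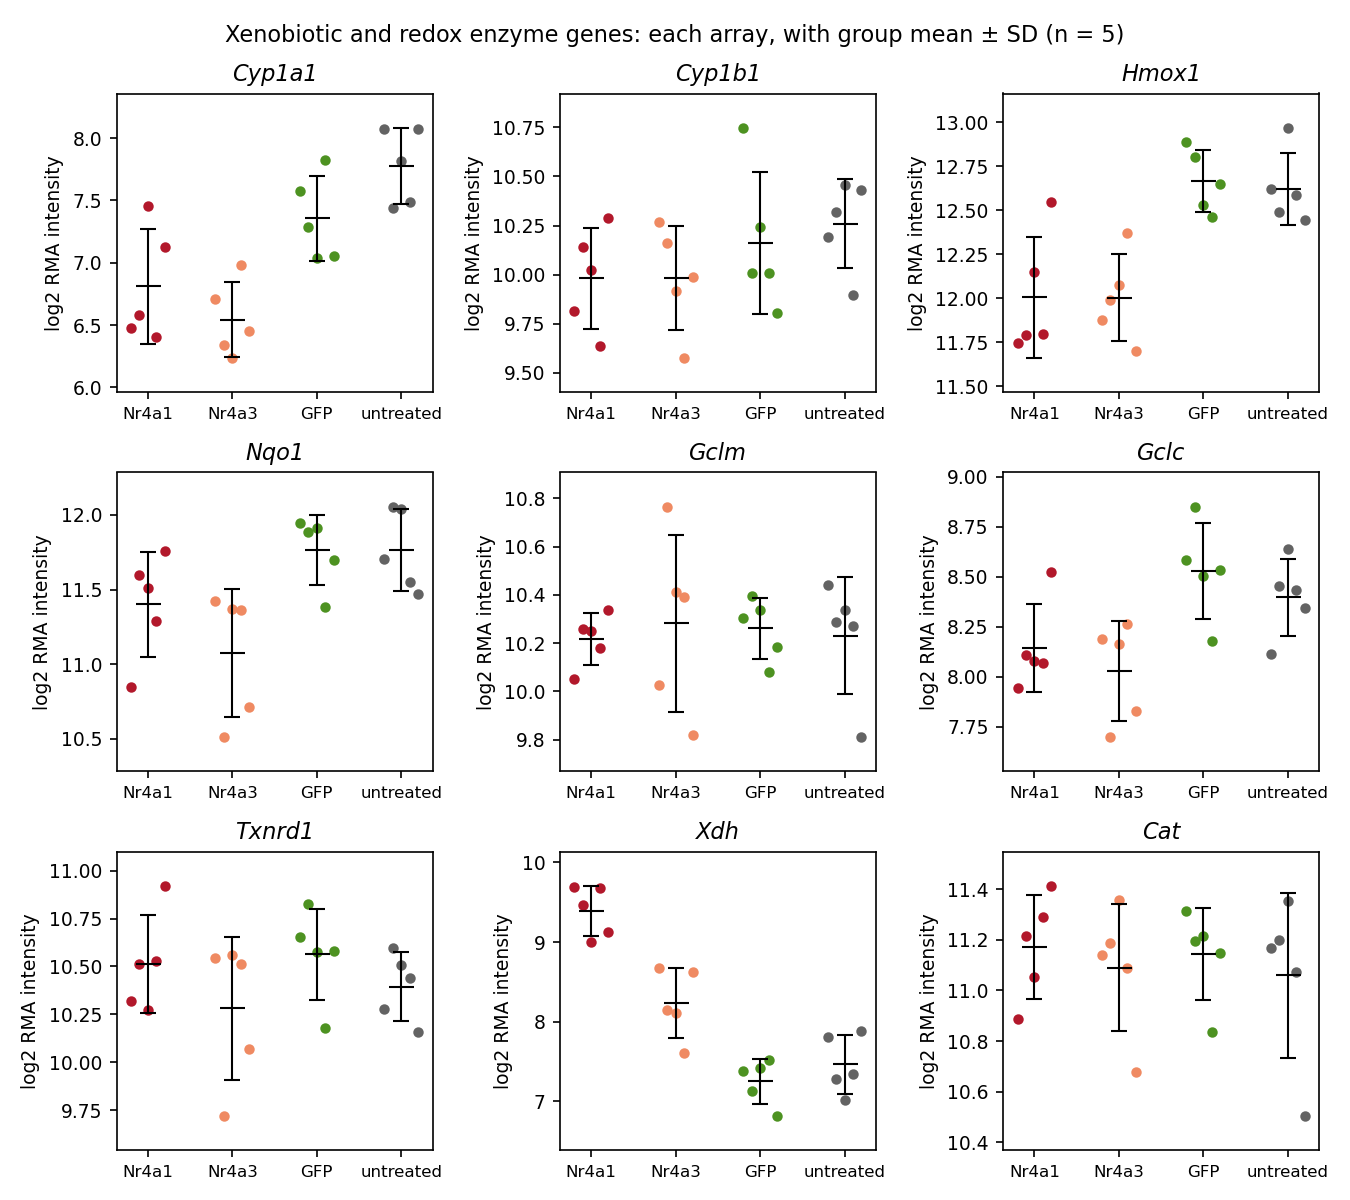
Log2 RMA value (vertical axis) of each of the 9 genes on each array, by group, with points for arrays and bars for the group mean and SD (n = 5). Cyp1a1 and Hmox1 sit lower in Nr4a3 than in GFP islets on every array, Xdh sits higher in both receptor groups, with Nr4a1 above Nr4a3, and the 4 groups overlap for Cyp1b1, Gclm and Cat.

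Nqo1, which reduces quinones to hydroquinones, is induced through both the AhR and Nrf2. Its values were 10.85, 11.60, 11.51, 11.29 and 11.76 in Nr4a1 islets and 11.42, 10.51, 11.37, 11.37 and 10.72 in Nr4a3 islets. They were 11.94, 11.89, 11.91, 11.38 and 11.70 in GFP islets and 11.70, 12.05, 12.04, 11.55 and 11.47 in untreated islets. Nr4a3 replicates 2 and 5 were the lowest of all arrays, and the other 3 Nr4a3 arrays lay at the level of the lowest GFP array. The difference was -0.69 ± 0.19 in Nr4a3 against GFP islets (95% interval -1.09 to -0.28, adjusted p = 0.0809) and -0.36 ± 0.19 in Nr4a1 against GFP islets (-0.77 to 0.04, adjusted p = 0.319), so neither passed. Without Nr4a3 replicate 2 the Nr4a3 difference of Nqo1 was -0.55, with an adjusted p of 0.116. With array weights, which count an atypical array less, it was -0.60 with an adjusted p of 0.0189, and with a repeated quantile normalization -0.70 with 0.0373. The window printed for Nqo1 above holds its AhR core next to the gene start. Nr4a3 replicate 2, the lowest in Nqo1, also had the lowest mean of the beta cell markers, 11.45, against 11.63 to 12.40 on the other arrays, and the part of these cells in the Nqo1 values was not tested.

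Gclc, the catalytic subunit of glutamate-cysteine ligase, lay below GFP islets in both receptor groups without passing the threshold. It had 7.94, 8.11, 8.08, 8.07 and 8.52 in Nr4a1 islets and 8.19, 7.70, 8.16, 8.26 and 7.83 in Nr4a3 islets. It had 8.58, 8.85, 8.50, 8.18 and 8.53 in GFP islets and 8.11, 8.45, 8.64, 8.44 and 8.34 in untreated islets. GFP replicate 4 and Nr4a1 replicate 5 were the arrays that made the ranges overlap most. The difference was -0.50 ± 0.14 with Nr4a3 (95% interval -0.79 to -0.21, adjusted p = 0.0688) and -0.38 ± 0.14 with Nr4a1 (-0.67 to -0.10, adjusted p = 0.0960), each against GFP islets in limma. Gclc passed in Nr4a1 against GFP islets without GFP replicate 4 (-0.47, adjusted p = 0.0415), without Nr4a1 replicate 5 (-0.48, 0.0346) or without Nr4a3 replicate 2 (-0.38, 0.0382). It passed in Nr4a3 against GFP islets without GFP replicate 4 (-0.59, 0.0312), Nr4a3 replicate 4 (-0.56, 0.0426) or Nr4a1 replicate 5 (-0.50, 0.0488). With array weights it passed in both, at -0.44 with Nr4a1 (adjusted p = 0.0037) and -0.45 with Nr4a3 (0.0142), and with a repeated quantile normalization at -0.48 with Nr4a3 (0.0484). Its second, dimmer probe set differed by -0.16 with Nr4a1 and -0.45 with Nr4a3.

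Gclm, the regulatory subunit of the same ligase, whose printed window shows an Nrf2 core, did not pass the test in any comparison. Its means were 10.22 ± 0.11 in Nr4a1, 10.28 ± 0.37 in Nr4a3, 10.26 ± 0.13 in GFP and 10.23 ± 0.24 in untreated islets (SD, n = 5 each). The difference from GFP islets was -0.05 ± 0.14 with Nr4a1 (95% interval -0.34 to 0.25) and 0.02 ± 0.14 with Nr4a3 (-0.27 to 0.32), with adjusted p of 0.935 and 0.962. Among the Nr4a3 arrays, replicate 2 had the highest Gclm value, 10.76, and the lowest Gclc value, 7.70.

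Txnrd1, which keeps thioredoxin reduced, averaged 10.51 ± 0.26 in Nr4a1, 10.28 ± 0.37 in Nr4a3, 10.56 ± 0.24 in GFP and 10.40 ± 0.18 in untreated islets (SD, n = 5 each). Its difference from GFP islets was -0.05 ± 0.16 with Nr4a1 (adjusted p = 0.933) and -0.28 ± 0.16 with Nr4a3 (adjusted p = 0.492). Nr4a3 replicate 2 had the lowest value, 9.72, and without it the Nr4a3 difference was -0.14. Its second, dimmer probe set differed by -0.18 with Nr4a1 and -0.41 with Nr4a3, with no test. Cat averaged 11.17 ± 0.21 in Nr4a1, 11.09 ± 0.25 in Nr4a3, 11.14 ± 0.18 in GFP and 11.06 ± 0.33 in untreated islets. Its differences from GFP islets were 0.03 ± 0.15 with Nr4a1 (95% interval -0.28 to 0.34) and -0.05 ± 0.15 with Nr4a3 (-0.36 to 0.26), and neither passed the test.

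Xdh was the member that rose, and it rose more with Nr4a1 than with Nr4a3. It had 9.69, 9.46, 9.00, 9.67 and 9.13 in Nr4a1 islets and 8.68, 8.14, 8.10, 7.60 and 8.62 in Nr4a3 islets. It had 7.38, 7.13, 7.42, 7.51 and 6.82 in GFP islets and 7.81, 7.28, 7.01, 7.34 and 7.88 in untreated islets. The ranges of Nr4a1, Nr4a3 and GFP islets did not overlap, and the lowest Nr4a3 array, replicate 4, lay below the highest untreated arrays. Against GFP islets Xdh rose 4.40-fold with Nr4a1 (2.14 ± 0.21 log2, adjusted p = 1.8e-06) and 1.97-fold with Nr4a3 (0.98 ± 0.21, 95% interval 0.54 to 1.41, adjusted p = 0.0168). Nr4a1 islets had 2.24-fold more than Nr4a3 islets (1.16 ± 0.21, adjusted p = 0.0091), and GFP against untreated islets gave -0.21 ± 0.21. The Nr4a1 rise passed under every alternative run, with differences between 2.03 and 2.24. The Nr4a3 rise missed the threshold when only the 10 arrays compared were fitted (0.98, adjusted p = 0.0646), and without GFP replicate 2 (0.95, 0.0507), GFP replicate 5 (0.87, 0.0622) or Nr4a3 replicate 1 (0.87, 0.0578). The difference between both receptors missed it when only those 10 arrays were fitted (adjusted p = 0.104). Xdh is listed among AhR targets as well as purine genes, and its 250-base window, printed above, holds no AhR core.

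Markers of other cells moved beside these genes. The 11 measured endothelial markers summed, on the linear scale, to 1683 to 2510 in Nr4a1, 2112 to 2645 in Nr4a3, 2737 to 4365 in GFP and 3180 to 5185 in untreated islets. Of them 7 fell in Nr4a1 against GFP islets, 2 in Nr4a3 against GFP islets and 9 in Nr4a1 against untreated islets. Of all genes 2.55%, 0.176% and 2.6% fell in these comparisons, in that order. Without Nr4a3 replicate 2 the Nr4a3 count was 3 (Cd93, Emcn and Flt1), in place of Flt1 and Kdr. The groups lay in the same order in the endothelial sum as in Cyp1a1 save that Nr4a1 and Nr4a3 changed places. The 12 acinar markers, digestive enzymes among them, summed to 26865 to 58672 in Nr4a1, 12217 to 24410 in Nr4a3, 2745 to 18387 in GFP and 3491 to 36894 in untreated islets. Of them 10 rose in Nr4a1 against GFP islets, 0 in Nr4a3 against GFP islets (4 at an unadjusted p under 0.05) and 7 in Nr4a1 against untreated islets. Of all genes 6.16%, 1.75% and 5.35% rose in these comparisons, and 12.8% had an unadjusted p under 0.05 in Nr4a3 against GFP islets. Xdh had the same order of Nr4a1, Nr4a3 and GFP islets as the acinar sum. Untreated replicate 5, whose acinar sum of 36894 lay within the Nr4a1 range, had an Xdh value of 7.88. Of 10 macrophage markers, cells rich in Hmox1, 0 passed in any of the comparisons, and they summed to 1011 to 2265 in Nr4a1, 805 to 2134 in Nr4a3, 1024 to 2118 in GFP and 1339 to 2923 in untreated islets. Where Hmox1 was tested, in Nr4a1 against untreated islets, 9 of the 10 were lower, with a median of -0.39, 2 of them at an unadjusted p under 0.05. That threshold was passed there by 20.8% of all genes, 9.67% lower. Against GFP islets 6 of 10 were lower with Nr4a1 (median -0.03, 1 higher at an unadjusted p under 0.05) and 7 of 10 with Nr4a3 (median -0.21, 0 at that threshold). It was passed by 19.9% of all genes with Nr4a1 and 12.8% with Nr4a3. Of 9 beta cell markers, 4 fell in Nr4a1 and 1 in Nr4a3 islets against GFP islets, where 2.55% and 0.176% of all genes fell. No marker is at 0 in RMA values, and the part of these cells in the results on Cyp1a1, Hmox1 and Xdh was not tested.

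**Figure D2:**
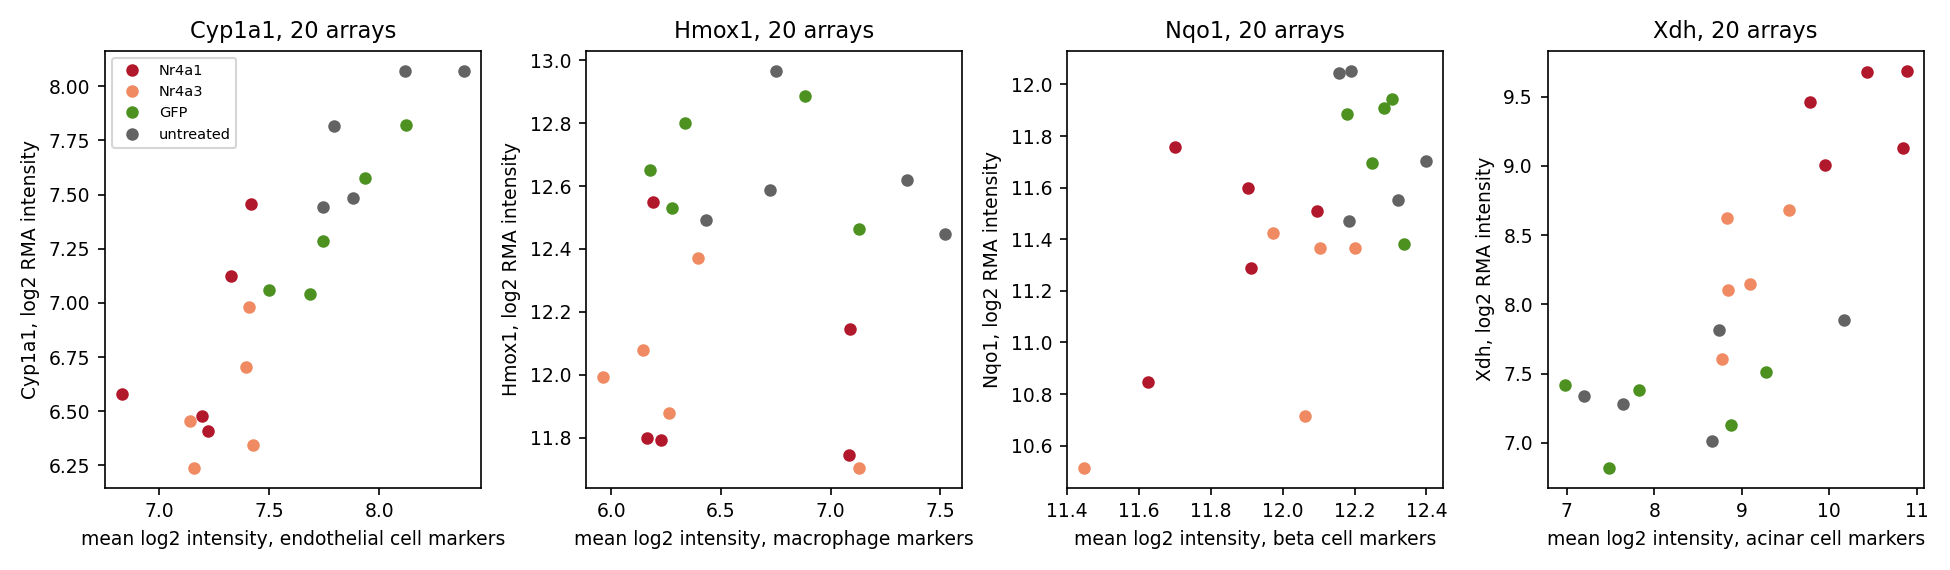
Log2 RMA value of Cyp1a1, Hmox1, Nqo1 and Xdh (vertical axes) against the mean log2 intensity of the endothelial, macrophage, beta cell and acinar markers (horizontal axes), 1 point per array, coloured by group. Nr4a1 (6.83 to 7.42) and Nr4a3 arrays (7.14 to 7.43) lie below GFP arrays (7.50 to 8.12) in the endothelial mean as in most Cyp1a1 values. Nr4a1 arrays have the highest Xdh with an acinar mean of 9.78 to 10.88, a range that also holds untreated replicate 5 (10.17), with an Xdh value of 7.88.

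Counted together, 1 of the 7 members tested in Nr4a1 against GFP islets passed, Xdh, where 8.71% of all genes passed, 6.16% higher and 2.55% lower. In Nr4a3 against GFP islets 1 of 7 passed, again Xdh, where 1.93% of all genes passed, 1.75% higher and 0.176% lower. None of the 7 fell past the threshold in either, and at an unadjusted p under 0.05 Gclc was lower with Nr4a1 and Nqo1 and Gclc with Nr4a3. That threshold was passed by 19.9% of all genes with Nr4a1, 8.11% lower, and by 12.8% with Nr4a3, 4.55% lower. The median difference of the 7 was -0.05 with Nr4a1 and -0.18 with Nr4a3, beside medians over all genes of -0.0013 and 0.0033. In Nr4a1 against Nr4a3 islets 1 of 7 passed, against 0.633% of all genes. In GFP against untreated islets 0 of 7 passed and 0% of all genes did, with limma, and 0 of the 7 had an unadjusted p under 0.05, as 412 of all genes did. In Nr4a1 against untreated islets 3 of 9 passed, Xdh higher at 1.93 ± 0.21 and Cyp1a1 and Hmox1 lower. There 7.94% of all genes passed, 5.35% higher and 2.6% lower. The 9 include Cyp1a1 and Hmox1, which chose the list, so this count is not set beside the counts out of 7. The comparisons with GFP islets share those arrays, so their values stand side by side and are not independent.

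**Figure D3:**
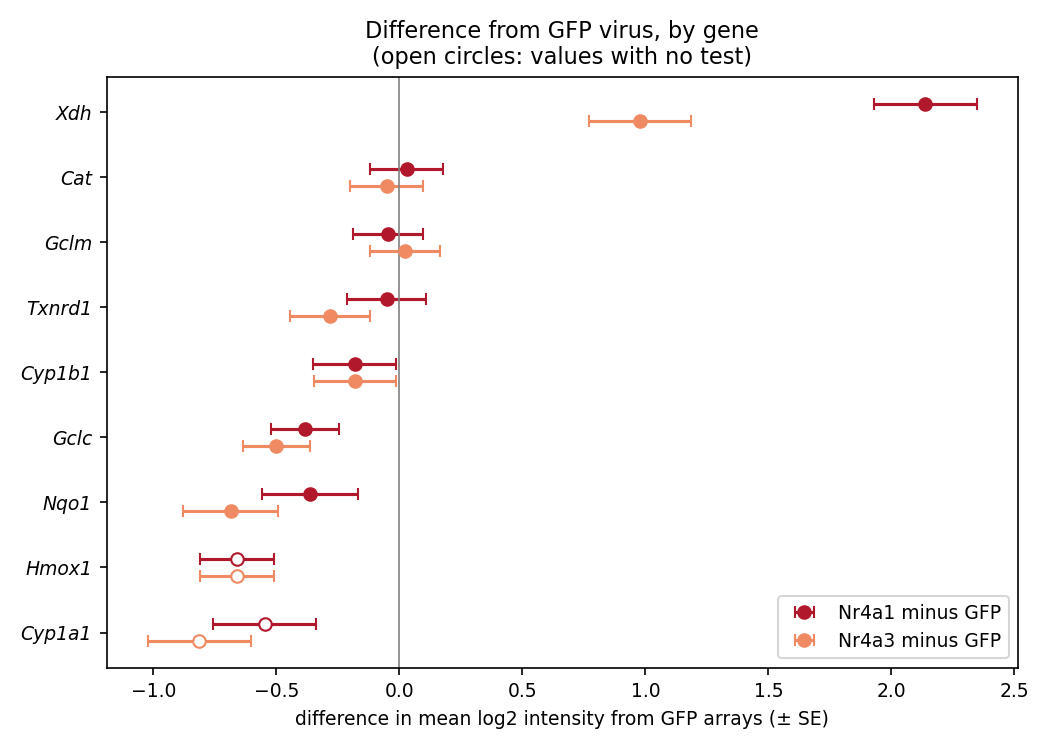
Log2 difference of each of the 9 genes from GFP islets (horizontal axis) in Nr4a1 and Nr4a3 islets, with bars of 1 SE from limma and open circles for values with no test. Xdh stands at 2.14 and 0.98 in Nr4a1 and Nr4a3 islets against GFP islets, Cyp1a1 at -0.55 and -0.81, Hmox1 at -0.66 in both, and Gclm and Cat between -0.05 and 0.03.

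Other genes of the AhR pathway were mostly dim on these arrays, which limits what their values can show. The mean of Cyp1a2 lay above 8.76% of all genes, that of Ahrr above 15.8%, Aldh3a1 21.0%, Cyp2s1 23.3% and Ahr 18.2%, whereas Tiparp, a target with a brighter probe set, lay above 64.3%. A fall of the dim genes may not be detectable near background. Of 5 other AhR targets measured, Cyp1a2, Ahrr, Tiparp, Aldh3a1 and Cyp2s1, 0 passed against GFP islets with either receptor, and 0 did at an unadjusted p under 0.05. Their differences ran from -0.14 to -0.02 with Nr4a1 and from -0.04 to 0.14 with Nr4a3. Tiparp differed by -0.14 ± 0.11 with Nr4a1 (adjusted p = 0.578) and by -0.01 ± 0.11 with Nr4a3 (adjusted p = 0.970). Ahrr, the AhR repressor that the receptor itself induces, differed by -0.07 ± 0.11 with Nr4a1 and by -0.02 ± 0.11 with Nr4a3. Of 5 components of the pathway, Ahr, Arnt, Arnt2, Ptges3 and Hsp90ab1, 0 passed in either. At an unadjusted p under 0.05, 1 passed with Nr4a1 and 0 with Nr4a3, where 19.9% and 12.8% of all genes passed. The 1 was Arnt2, at -0.35 ± 0.12 with Nr4a1 (adjusted p = 0.083), which passed without Nr4a3 replicate 2, where 19.1% of all genes then passed. Ahr itself differed by -0.08 ± 0.12 with Nr4a1 and -0.02 ± 0.12 with Nr4a3. In Nr4a1 against untreated islets 0 of the 5 targets passed beside Cyp1a1. All 5 were lower there, with differences from -0.27 to -0.01 and a median of -0.13. At an unadjusted p under 0.05, 2 were lower, where 20.8% of all genes passed, 9.67% lower. Without Nr4a3 replicate 2 Aldh3a1 passed, lower, where 19.1% of all genes then passed.

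Among 23 other Nrf2 targets measured, single genes moved in both directions. In Nr4a1 against GFP islets, where 8.71% of all genes passed, 2 rose and 1 fell, with a median of -0.14. At an unadjusted p under 0.05, 4 were higher and 4 lower, where 19.9% of all genes passed, 8.11% lower. In Nr4a3 against GFP islets, where 1.93% of all genes passed, 1 rose and 0 fell, with a median of -0.22 and 18 of 23 below GFP. At the unadjusted threshold 1 was higher and 3 were lower, where 12.8% of all genes passed, 4.55% lower. With Nr4a3 replicate 2 left out, 12 of the 23 were below GFP with Nr4a3 and the median was -0.06, while 4 rose and 1 fell with Nr4a1, where 19.1% of all genes then passed. Of 8 components of the pathway, among them Nfe2l2, which codes for Nrf2, Keap1 and Bach1, 0 passed against GFP islets with either receptor, while 3 were lower at an unadjusted p under 0.05 in each. All 8 were lower than in GFP islets with both receptors, with medians of -0.21 with Nr4a1 and -0.26 with Nr4a3. Without Nr4a3 replicate 2, 6 of 8 were lower with Nr4a3, with a median of -0.13, 1 of them past the threshold (Mafg), and 2 passed with Nr4a1 (Cul3 and Mafg). Nfe2l2 differed by -0.20 ± 0.08 with Nr4a1 (adjusted p = 0.155) and -0.01 ± 0.08 with Nr4a3, and Keap1 by -0.03 ± 0.18 with Nr4a1 and -0.21 ± 0.18 with Nr4a3.

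Ephx1, microsomal epoxide hydrolase, which opens the epoxides that P450 enzymes make, was the Nrf2 target that rose in both receptor groups. It had 8.77, 9.08, 8.24, 8.81 and 8.93 in Nr4a1 islets and 8.74, 6.74, 8.33, 7.66 and 7.39 in Nr4a3 islets. It had 6.89, 6.74, 6.41, 6.35 and 6.58 in GFP islets and 6.55, 6.69, 6.65, 6.52 and 6.79 in untreated islets. The Nr4a1 arrays lay above all GFP and untreated arrays, and of the Nr4a3 arrays only replicate 2 lay among them. Ephx1 rose by 2.17 ± 0.26 with Nr4a1 (adjusted p = 1.5e-05) and 1.18 ± 0.26 with Nr4a3 (adjusted p = 0.0179), each against GFP islets. The Nr4a3 rise missed the threshold with only the 10 arrays compared (adjusted p = 0.144), and without GFP replicate 3 (1.13, 0.0549), GFP replicate 5 (1.17, 0.0524), Nr4a3 replicate 1 (0.94, 0.0516) or Nr4a3 replicate 3 (1.04, 0.0646). Without Nr4a3 replicate 2 it was 1.43 (adjusted p = 0.00062). Of its 2 RefSeq windows, the one at chr13:95263118-95263367 on the - strand, shown because Ephx1 rose with both receptors and picked after its values were seen, holds 1 Nrf2 core and 1 NR4A element, 196 to 189 bases before the start.
Ephx1: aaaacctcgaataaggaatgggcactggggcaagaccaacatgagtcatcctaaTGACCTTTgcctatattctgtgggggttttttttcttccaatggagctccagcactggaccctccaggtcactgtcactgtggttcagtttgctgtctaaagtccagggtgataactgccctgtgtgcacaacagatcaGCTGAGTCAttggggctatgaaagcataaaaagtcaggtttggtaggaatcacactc
The other Ephx1 window holds none of the 3 motifs.

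Gpx2, a glutathione peroxidase of epithelia, rose by 1.83 ± 0.46 in Nr4a1 against GFP islets (adjusted p = 0.0148), with 11.80, 12.56, 10.96, 12.59 and 12.69 in Nr4a1 islets and 9.55, 11.18, 10.99, 9.21 and 10.51 in GFP islets. Nr4a1 replicate 3 lay within the GFP range. Abcc4, an exporter of organic anions, fell by 0.57 ± 0.13 (adjusted p = 0.0087), and its Nr4a1 arrays, 8.66 to 9.29, lay below its GFP arrays, 9.43 to 9.98. In Nr4a1 against untreated islets Blvrb, a biliverdin reductase, rose by 0.49 ± 0.10 (adjusted p = 0.0039), beside Ephx1 and Gpx2.

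**Figure D4:**
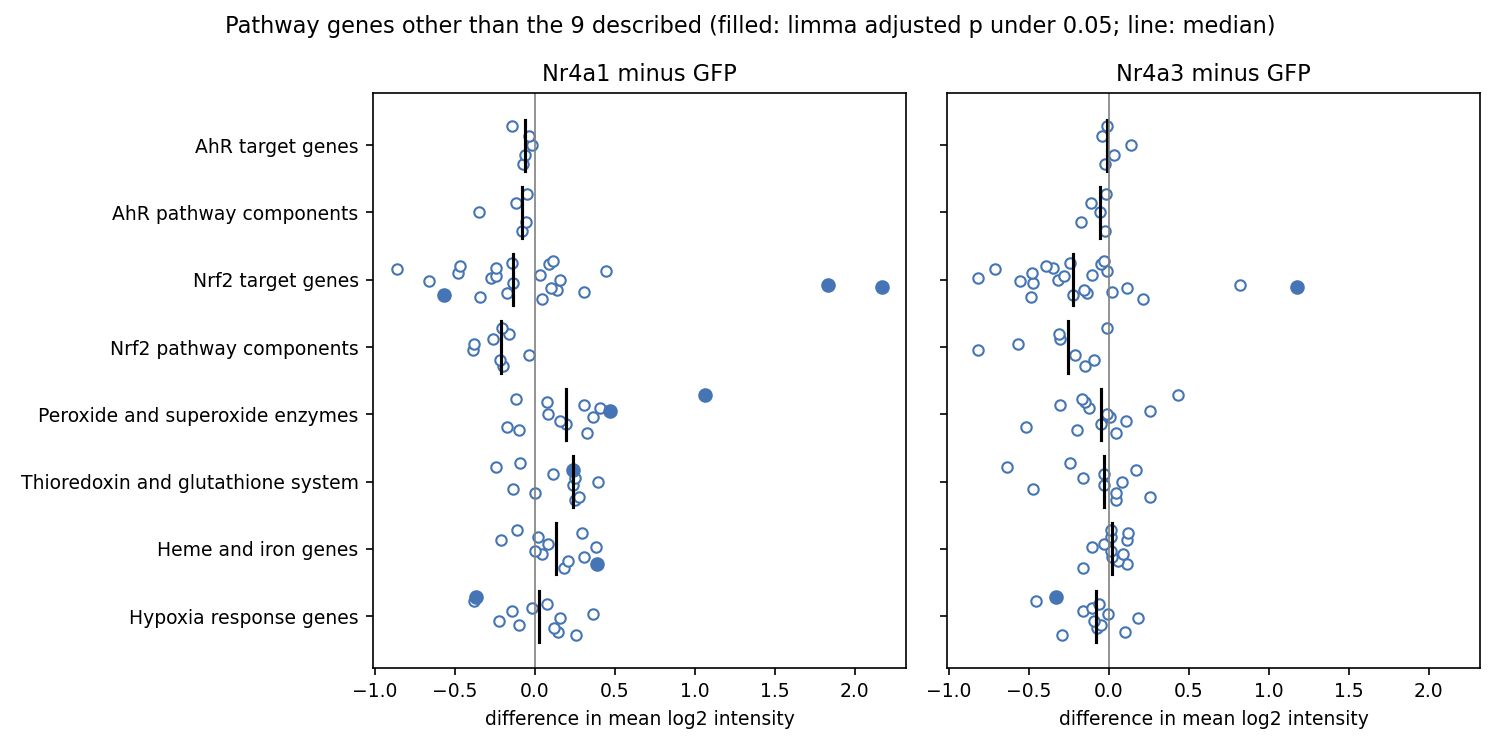
Log2 difference of each measured gene of the pathway lists other than the 9 members (points), for 8 of the lists, in Nr4a1 against GFP (left) and Nr4a3 against GFP islets (right), with filled points for an adjusted p under 0.05 and a line at each median. AhR targets lie within -0.14 to 0.14, and Nrf2 targets run from -0.86 to 2.17 with Nr4a1.

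Other groups of enzymes are read against the 8.71% of all genes called in Nr4a1 against GFP islets and the 1.93% in Nr4a3 against GFP islets. Of 13 other peroxide and superoxide enzymes, Sod3, the secreted superoxide dismutase, and Prdx4, the peroxiredoxin of the endoplasmic reticulum, rose in Nr4a1 against GFP islets, by 1.06 ± 0.20 (adjusted p = 0.0017) and 0.47 ± 0.11 (adjusted p = 0.0102). In Nr4a3 against GFP islets 0 of the 13 passed, with 2 higher at an unadjusted p under 0.05, a threshold that 12.8% of all genes passed. Without Nr4a3 replicate 2 the counts were 5 higher and 1 lower with Nr4a1, where 19.1% of all genes then passed, and 1 higher with Nr4a3, where 3.71% did. Of 11 genes of the thioredoxin and glutathione system 1 passed with Nr4a1, the mitochondrial thioredoxin Txn2 at 0.24 ± 0.07 (adjusted p = 0.0361), and it missed the threshold without any 1 of 9 different arrays, with the replicate block (0.0589) and with a repeated quantile normalization (0.0748), under which Gss passed instead. Of 12 heme and iron genes other than Hmox1, 1 rose past the threshold with Nr4a1 and 0 with Nr4a3, and 0 fell past it in either. By sign alone 2 were lower with Nr4a1 and 3 with Nr4a3. The 1 that rose was Alas1, which starts heme synthesis, at 0.39 ± 0.11 (adjusted p = 0.0258). That call was lost without GFP replicates 4 or 5 or Nr4a1 replicates 1, 2 or 5 (adjusted p of 0.0586 to 0.0841).

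When Nr4a3 replicate 2 was left out, 4 of the 11 thioredoxin and glutathione genes, 4 of the 12 heme and iron genes and 3 of 11 other P450 and conjugation genes rose in Nr4a1 against GFP islets, where 12.2% of all genes then rose. Of 10 purine and oxidase genes other than Xdh, Gda, guanine deaminase, which makes xanthine from guanine, rose by 1.11 ± 0.29 in Nr4a1 against GFP islets (adjusted p = 0.0199). Its adjusted p lay between 0.0538 and 0.071 without GFP replicates 1, 4 or 5 or Nr4a1 replicates 1 or 5. In Nr4a3 against GFP islets Gda differed by 0.60 ± 0.29 (adjusted p = 0.396). Uox, which breaks uric acid down further in rats, differed by 0.01 ± 0.17 with Nr4a1 and -0.04 ± 0.17 with Nr4a3. Of 12 hypoxia response genes, 1 fell with each receptor, Vegfa, by 0.37 ± 0.08 with Nr4a1 (adjusted p = 0.0048) and 0.33 ± 0.08 with Nr4a3 (adjusted p = 0.0314). The Nr4a3 call of Vegfa was lost without any 1 of GFP replicates 1, 2, 3 or 5 or Nr4a3 replicates 1 or 5 (adjusted p of 0.0588 to 0.0944), with the replicate block (0.0707) and with only the arrays compared (0.0952). With the mean of its probe sets Vegfa missed the threshold with both receptors (adjusted p = 0.128 with Nr4a1 and 0.329 with Nr4a3). Of 11 other P450 and conjugation genes, Nat1, an arylamine acetyltransferase, rose with Nr4a1 (0.56 ± 0.11, adjusted p = 0.0032). Of 3 metallothioneins, Mt3 rose with Nr4a1 (0.55 ± 0.14, adjusted p = 0.0202), a call lost without GFP replicates 2 or 3 or Nr4a1 replicates 1 or 4 (adjusted p of 0.0514 to 0.0684).

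Within the groups, after each group's mean was taken off, the members varied together to different degrees over the 20 arrays. Pearson's r was 0.90 between Gclc and Txnrd1, 0.84 between Nqo1 and Txnrd1 and 0.79 between Nqo1 and Gclc. Hmox1 had r of 0.69 with Gclc, 0.58 with Nqo1 and -0.71 with Xdh, and Cyp1a1 had 0.44 with Hmox1, 0.25 with Cyp1b1 and 0.16 with Nqo1. Gclm had only 0.13 with Gclc, 0.10 with Txnrd1 and 0.23 with Nqo1. Over the 19 arrays without Nr4a3 replicate 2, Gclm had 0.49 with Gclc, 0.65 with Txnrd1 and 0.69 with Nqo1, while the first 3 pairs had 0.89, 0.79 and 0.75 and Hmox1 with Xdh -0.71. These are descriptions over arrays, with array quality shared by all genes of an array. Of 7109 brighter genes, the ones most like Cyp1a1 over the 20 arrays were Kdr (r = 0.89), Tbcel (0.87), Txnip (0.87), Mcam (0.86) and Epb41l4a (0.85), and Kdr is an endothelial marker above. For Hmox1 they were Enah (0.88), Pde2a (0.88), Tspan5 (0.87), Znrf2 (0.87) and Phf8 (0.86), of 7108 genes. The arrays share the group differences that chose Cyp1a1 and Hmox1, and with group means taken off these r values were 0.65 to 0.72.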

How the data were processed

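RNA of 20 islet samples was measured on 1 Affymetrix rat array each. The deposited values are probe set intensities that the authors made with RMA, per the submitters' processing notes, whose version is not stated. The file holds them on a linear scale, so log2 was taken, with no further scaling, and 0 columns were left out. Of 31099 probe sets, 20832 have 1 gene symbol, 436 several and 9831 none, and the brightest probe set of each of 14218 genes was used.

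limma 3.58.1 in R 4.3.3 fitted 4 group means to all 20 arrays (16 residual and 3.63 prior degrees of freedom), with two-sided moderated tests adjusted by Benjamini-Hochberg over all genes of a comparison and called under 0.05. The procedure was tested on simulated data. The members, lists and tests were chosen with earlier results of these data known. Named genes were the members, up to 4 called genes with the smallest adjusted p of each list, and the 5 most like Cyp1a1 and Hmox1; other named genes were added after their values were seen. Same-numbered samples of different groups had a median correlation of -0.03 over 30 pairs, so replicate numbers were not used to pair samples. The alternatives were the arrays fitted, a replicate block, array weights, the variance prior, normalization, dim genes, probe sets, and each array left out.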

Additional observations from a re-analysis of the deposited data

Results flagged for a closer look

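Of 36 sets of 5 arrays examined (9 genes in 4 groups), 2 held an array far from the others, and chance gives about 1 in 20. Gclc in Nr4a1 replicate 5 was 8.52, against 7.94 to 8.11 in the other Nr4a1 arrays. Gclm in untreated replicate 5 was 9.81, against 10.27 to 10.44 in the other untreated arrays.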

How the results depend on the processing

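In Nr4a1 against GFP islets the 1 member called became 2 with array weights, and leaving out each array in turn gave 1 to 2. In Nr4a3 against GFP islets the 1 became 3 with array weights, 3 with a repeated quantile normalization and 0 with only the arrays compared, and leaving out each array gave 0 to 2. The 0 came without GFP replicate 2, GFP replicate 5 or Nr4a3 replicate 1. In Nr4a1 against Nr4a3 islets the 1 became 0 with only the arrays compared, which leaves fewer arrays to estimate the spread, and 1 remained without each array. In Nr4a1 against untreated islets the 3 stayed between 2 and 3. Replicate numbers mark no known pairing, and with the replicate block the counts of members called were 1, 1, 1, 0 and 3, as without it.

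Over all genes, the 1239 calls in Nr4a1 against GFP islets became 3578 with array weights and 2854 with only the arrays compared, and 742 to 2715 without each array. The 274 calls in Nr4a3 against GFP islets became 1027 and 122, and 127 to 527. The 90 in Nr4a1 against Nr4a3 islets became 274 and 1, and 43 to 133, and the 1129 in Nr4a1 against untreated islets became 2399 and 1801, and 714 to 2711. The replicate block gave 1088, 204, 70 and 994, and the other settings 923 to 1683, 135 to 329, 72 to 120 and 816 to 1551. No called difference of a member changed sign under any alternative run. Cyp1a1 lies in the dimmer part of the genes, so the alternative with the brighter genes gave no value for it. Counts of the lists under other scalings and without Nr4a3 replicate 2 were alternatives chosen after seeing the data. The cause of these changes was not tested.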
